A study of Rattus norvegicus with 6 samples.

Results

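The miR-23/27/24 miRNAs come from a pair of paralogous clusters, and they were followed here in the left ventricle of diabetic and non-diabetic rats. The members were the 5 assays named exactly miR-23a, miR-23b, miR-24, miR-27a or miR-27b, out of 584 miRNA assays on the cards, without the passenger-strand assays. All 5 carry the mouse prefix and lie on the first of the 2 cards, called card A here, with 1 well each. MicroRNA was measured by RT-qPCR in 3 OLETF rats, a strain that becomes obese and diabetic and is labelled as diabetes, and in 3 LETO rats, the strain labelled as healthy control. Every diabetic rat was OLETF and every control LETO, so diabetes cannot be told apart from strain or obesity. Per the labels' protocols and the design text, the rats had been anesthetized and ventilated before the hearts were frozen. Age, sex and litter are not given in the sources used here. Each sample is bulk tissue, in which fewer cells of a type and less RNA per cell cannot be told apart.

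MicroRNAs of one cluster are cut from a shared primary transcript, and each mature strand then guides silencing complexes to mRNAs that pair with its seed, the bases near its 5′ end. In mice, miR-23a is known as a pro-hypertrophic miRNA that represses the ubiquitin ligase MuRF1, miR-24 is known to repress junctophilin-2 of the cardiomyocyte's calcium release sites, and miR-27b is known to act on the nuclear receptor PPARG. In endothelium the whole family is known for its part in vessel sprouting.

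The sequences show what the assays had to tell apart. They are the rat mature 3′ strands from RefSeq (GRCr8), printed 5′ to 3′ with the seed, bases 2 to 8, in capitals.
miR-23a-3p: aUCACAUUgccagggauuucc
miR-23b-3p: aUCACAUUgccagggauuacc
miR-27a-3p: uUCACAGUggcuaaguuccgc
miR-27b-3p: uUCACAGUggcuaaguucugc
miR-24-3p: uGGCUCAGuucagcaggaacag
The a and b forms of each family share their seed and differ at 1 of 21 positions. Counted from the 5′ end and given as the a form's base, position, then the b form's base, the difference was U19A for miR-23 and C19U for miR-27. Both lie near the 3′ end, where a stem-loop primer anneals in this kind of assay. How far each assay also reads its paralogue was not tested. Among 694 mature rat miRNAs in the RefSeq table, the seed UCACAUU occurred in the 2 miR-23 forms alone, UCACAGU in the 2 miR-27 forms alone and GGCUCAG in miR-24 alone. From miR-27a to miR-23a the seeds differ by the single substitution G7U.

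The a cluster lies on chromosome 19 at chr19:40859455-40859843 on the minus strand, a span of 389 bases, and the b cluster on chromosome 17 at chr17:1818669-1819482, also on the minus strand, a span of 814 bases (GRCr8). Both run in the order miR-23, miR-27, miR-24. All 3 hairpins of the b cluster fall within Aopep, an aminopeptidase gene, in the RefSeq gene table, and the hairpin of Mir24-1 also overlaps Mir3074 and touches the end of Fancc. No other gene of the table overlaps the a cluster, whose nearest protein-coding gene on the side of lower coordinates, Zswim4, ends 1712 bases away. Exons and introns are not given in that table.

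**Figure D1:**
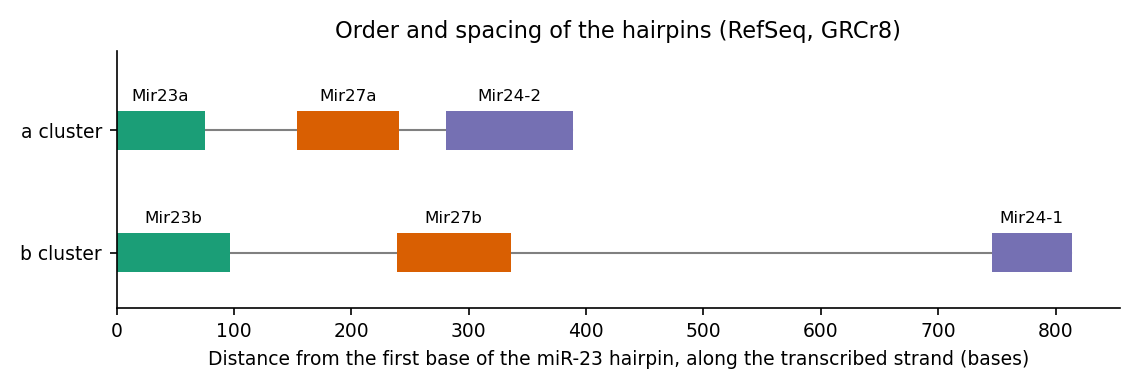
Hairpins of the a cluster (upper row) and b cluster (lower row) as boxes, against the distance in bases from the first base of the miR-23 hairpin along the transcribed strand. The order is the same, while the last hairpin starts at 281 bases in the a cluster and at 746 bases in the b cluster.

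miR-24 is the exception to the a and b contrast, because both clusters yield the same mature strand. The hairpins are shown with that strand in capitals.
Mir24-2 (a cluster): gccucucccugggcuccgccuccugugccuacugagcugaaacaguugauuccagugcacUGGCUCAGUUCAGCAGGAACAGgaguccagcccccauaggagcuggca
Mir24-1 (b cluster): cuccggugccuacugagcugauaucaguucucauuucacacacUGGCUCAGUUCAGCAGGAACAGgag
The 22 bases of miR-24-3p are identical in both, so the miR-24 assay cannot assign its signal to a cluster. Their 5′ strands differ at 5 of 22 positions, all from position 17 on, and have assays of their own.

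A threshold cycle (Ct) is the PCR cycle at which a well crosses a set fluorescence, so a lower Ct means more RNA. Levels are in log2 units: the mean Ct of the card's U6 wells minus the assay's Ct, so that a higher value means more RNA. A Ct of 35 or more was treated as not measured. The U6 Ct on card A was 17.64, 17.94 and 18.22 in OLETF replicates 1, 2 and 3, against 19.20, 17.46 and 17.89 in LETO. The number of miRNA assays measured was 197, 200 and 228 in OLETF, against 207, 202 and 292 in LETO. LETO replicate 3 thus stood apart, and its median level relative to U6 over card A, -8.61, was the highest of the 6 samples, so results are also given without it. As to tissue markers, all 7 assays of the heart muscle list, among them miR-133a and miR-1, were measured in all 6 samples. miR-122 of liver and miR-375 of islets were measured in none. Other tissues were read too. miR-206 of skeletal muscle was measured in 2 OLETF and 3 LETO samples. Of the blood lists, 3 of 4 leukocyte assays and 1 of 2 red-cell assays were measured in all samples. Leukocyte miR-150 took rank 5 on card A by mean Ct.

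All 5 members were measured in every sample, and their levels kept the same order in all 6: miR-24, then miR-27a, miR-27b, miR-23b and miR-23a. miR-24 had a Ct of 21.21, 21.80 and 20.23 in OLETF, against 22.49, 21.97 and 19.32 in LETO. Among the 122 assays of card A measured in all samples, it took rank 3 to 5 from the highest level. miR-27a took rank 25 to 41 and miR-27b rank 39 to 53. miR-23b took rank 62 to 86. miR-23a took rank 118 to 122 and was the last of all in 3 samples. Ranks set different assays side by side, and assays differ in efficiency, so they describe readings rather than molecule numbers.

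The a and b clusters were thus read in opposite order in the miR-23 and miR-27 families. Because both assays of a pair lie on one card, the gap between them within a sample needs no reference RNA. The gap of miR-27a over miR-27b was 0.89, 1.08 and 1.12 log2 units in OLETF, against 0.79, 0.88 and 1.47 in LETO. It was above 0 in 6 of 6 samples, with a mean of 1.04 ± 0.25 (SD, n = 6), a fold of 2.05 if both assays double each cycle. The gap of miR-23a over miR-23b was -4.08, -5.59 and -6.57 in OLETF, against -3.59, -3.33 and -4.09 in LETO. It was below 0 in 6 of 6 samples, with a mean of -4.54 ± 1.27 (SD, n = 6), so that miR-23b read 23.3-fold above miR-23a on the same assumption. Within the b cluster, miR-27b stood over miR-23b in all 6 samples, the closest approach being 0.89 log2 units in OLETF replicate 1. These gaps are descriptions without a test, since the efficiency of each assay was not measured.

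miR-23a was read close to the detection limit. Its Ct was 33.03, 34.95 and 34.98 in OLETF, against 33.94, 33.43 and 31.99 in LETO. Of the 122 card A assays it was the single one with a mean Ct between 33 and 35. On card B, where many assays have 2 wells, the single-well SD came to 0.282 cycles at a mean Ct below 30 (84 pairs of wells), 0.430 between 30 and 33 (56 pairs) and 0.751 between 33 and 35 (49 pairs). The spread between wells was thus largest in the range where miR-23a was read. No such estimate exists for card A, where each member has 1 well. Relative to the card median, the within-group SD of miR-23a was 1.23, beside a median of 0.585 over the 38 card A assays with a mean Ct of 30 to 33 and of 0.516 over the 63 with one of 25 to 30.

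None of the 5 members passed between OLETF and LETO ventricles at an adjusted p under 0.05 (limma, Benjamini-Hochberg over 193 assays tested, adjusted p = 0.997 for each). Over all assays 0 of 193 passed, 0.0%, and 2 of 193 had an unadjusted p under 0.05 (1.04%), none of them a member. Relative to U6, 4 members lay lower and 1 higher in OLETF, with a median difference of -0.82. Over all 193 assays tested 156 lay lower and 37 higher, with a median of -0.60.

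The miR-23a level was -15.39, -17.01 and -16.76 in OLETF, against -14.73, -15.97 and -14.11 in LETO. OLETF was lower in 8 of 9 pairs of samples, and the groups overlapped through OLETF replicate 1 and LETO replicate 2. The means were -16.38 ± 0.87 in OLETF and -14.94 ± 0.95 in LETO (SD, n = 3 each), a difference of -1.45 (SE 1.38, limma adjusted p = 0.997, exact permutation p = 0.2). This difference took place 20 of 193 from the most negative.

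The miR-23b level was -11.31, -11.42 and -10.18 in OLETF, against -11.15, -12.64 and -10.02 in LETO. The OLETF values lay inside the LETO range. The means were -10.97 ± 0.69 in OLETF and -11.27 ± 1.32 in LETO (SD, n = 3 each), a difference of 0.30 (SE 1.38, limma adjusted p = 0.997, exact permutation p = 1).

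The miR-27a level was -9.53, -9.36 and -7.62 in OLETF, against -8.12, -10.25 and -5.65 in LETO. The miR-27b level was -10.42, -10.44 and -8.74 in OLETF, against -8.90, -11.13 and -7.12 in LETO. For both, all OLETF values lay between LETO replicates 2 and 3. The difference was -0.83 for miR-27a and -0.82 for miR-27b (SE 1.38 each, limma adjusted p = 0.997, exact permutation p = 0.7 each).

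The miR-24 level was -3.57, -3.87 and -2.01 in OLETF, against -3.28, -4.51 and -1.43 in LETO. Its difference was -0.07 (SE 1.38, limma adjusted p = 0.997, exact permutation p = 1), and the OLETF values again lay inside the LETO range. The SE was equal for all members because limma in effect pooled the spread over assays. The assay's own SE, from the ordinary linear model, ran from 0.744 for miR-23a to 1.46 for miR-27a. Without LETO replicate 3 the differences were -1.03 for miR-23a, 0.92 for miR-23b, 0.75 for miR-24, 0.34 for miR-27a and 0.15 for miR-27b. The sign of miR-27a and miR-27b relative to U6 turned only when that sample was left out, among the 6 samples left out in turn. That of miR-24 also turned without OLETF replicate 1 or 2, and that of miR-23b without OLETF replicate 3 or LETO replicate 2.

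**Figure D2:**
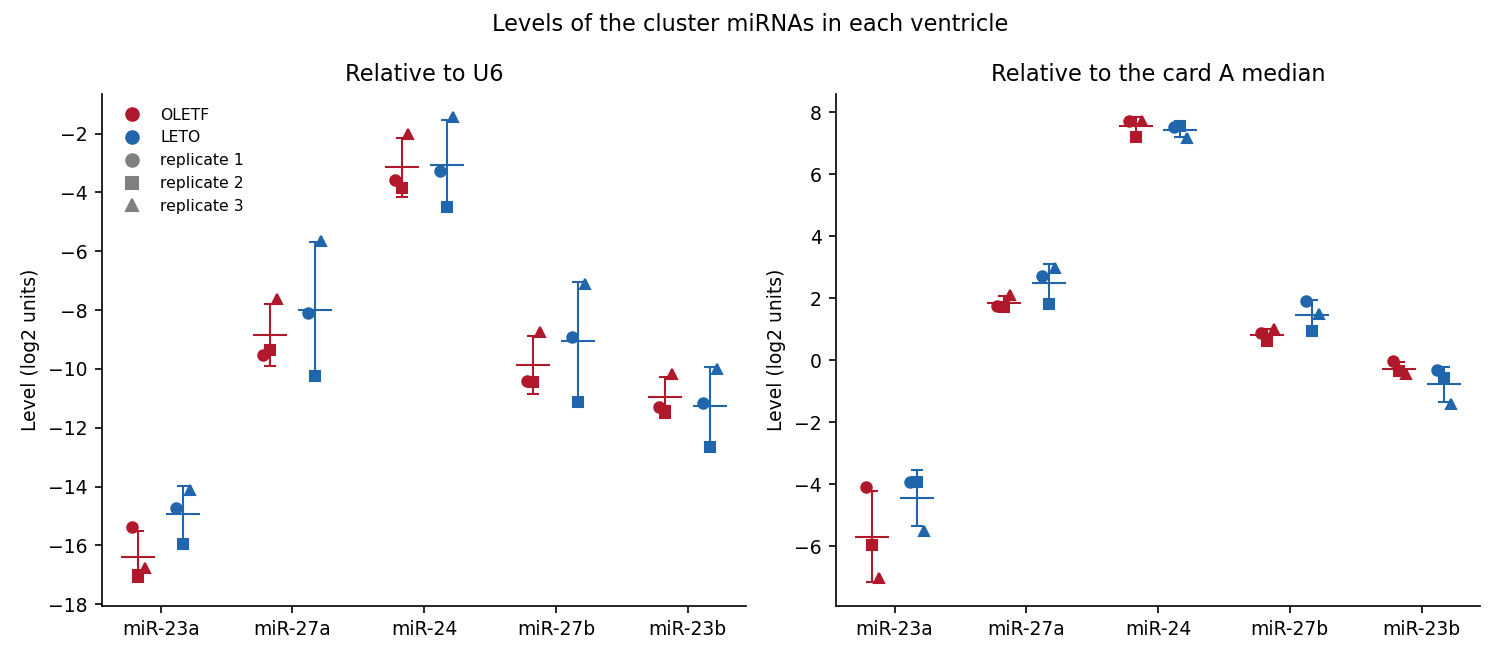
Level in log2 units relative to U6 (left) and to the median of card A (right) for each member, with OLETF in red to the left of LETO in blue. Symbols are the 3 replicates and bars the mean ± SD; relative to U6 each replicate 3 stands high in miR-24, miR-27a, miR-27b and miR-23b, and relative to the card median the groups overlap for every member.

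Levels of 4 members varied less relative to the median of card A than relative to U6. This was not particular to them: over all 193 assays the median limma SE was 1.38 with U6 and 0.464 with the card median. Over the 6 samples the SD of miR-24 was 0.24 log2 units relative to the card median and 1.17 relative to U6. That of miR-27a was 0.53 and 1.66 on the same scales. miR-23a was the exception, with 1.29 and 1.14. On that scale miR-24 lay at 7.72, 7.20 and 7.73 in OLETF, against 7.54, 7.55 and 7.18 in LETO, a difference of 0.13 (SE 0.361, limma adjusted p = 0.870).

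With the card median, both miR-27 forms lay lower in OLETF and miR-23b higher, again without passing. miR-27a was 1.76, 1.71 and 2.11 in OLETF, against 2.70, 1.81 and 2.96 in LETO, lower in 8 of 9 pairs of samples. miR-27b was 0.87, 0.62 and 1.00 in OLETF, against 1.91, 0.93 and 1.49 in LETO, also lower in 8 of 9 pairs. The differences were -0.63 (SE 0.417) and -0.62 (SE 0.391), both at a limma adjusted p of 0.632 and an exact permutation p of 0.2. miR-23b lay at -0.02, -0.35 and -0.45 in OLETF, against -0.33, -0.59 and -1.41 in LETO, a difference of 0.50 (SE 0.409, limma adjusted p = 0.638). miR-23a lay at -4.10, -5.94 and -7.02 in OLETF, against -3.92, -3.91 and -5.50 in LETO, a difference of -1.25 (SE 0.764, limma adjusted p = 0.632). Without LETO replicate 3 these differences were -0.40 for miR-27a, -0.59 for miR-27b, 0.18 for miR-23b and -1.77 for miR-23a. Without OLETF replicate 3 that of miR-23a was -0.58. Over all assays 0 of 193 passed with the card median, and 12 of 193 had an unadjusted p under 0.05 (6.22%), again none of them a member. None of the 5 members separated the groups with the card median, where 13.6% of 162 assays did. With the whole-array median 1 of 5 did, miR-23b, which was higher in 9 of 9 pairs (0.78, SE 0.446, limma adjusted p = 0.512), beside 14.8% of 162 assays.

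**Figure D3:**
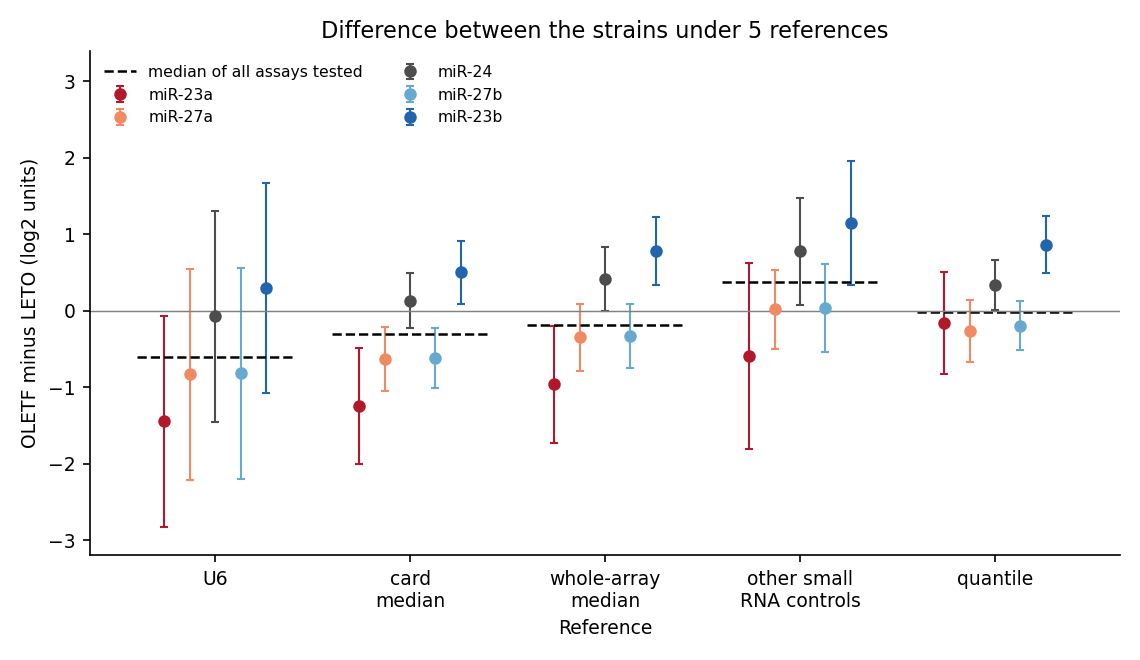
Difference of OLETF minus LETO in log2 units (points, bars are the limma SE) of each member under 5 references, with the median of all assays tested as a dashed line. miR-23a lies below and miR-23b above the other members under every reference but quantile normalization, where miR-27a and miR-27b lie below miR-23a. Apart from quantile normalization, each reference shifts all members of a sample alike, so their order and spacing are the same by construction. No member passed under any of the references.

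The direction of most members depended on the reference. With the other small RNA controls in place of U6, the median of all assays was 0.37, 145 of 193 assays lay higher in OLETF, and so did 4 of 5 members, with miR-23a at -0.60 as the exception. miR-23a lay lower and miR-23b higher under all 5 references drawn. The differences of miR-23a ran from -1.45 to -0.16 over these references. Those of miR-23b ran from 0.30 to 1.15. Apart from quantile normalization, each reference shifts all 5 members alike, so the spacing between miR-23a and miR-23b was not checked separately by each.

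The gap between paralogues was compared between the strains for the same reason that it needs no reference. The gap of miR-27a over miR-27b averaged 1.03 ± 0.12 in OLETF and 1.05 ± 0.37 in LETO (SD, n = 3 each), a difference of -0.016 (exact permutation p = 1). Without LETO replicate 3 the difference was 0.20 and the groups did not overlap (exact permutation p = 0.2). The gap of miR-23a over miR-23b averaged -5.41 ± 1.26 in OLETF and -3.67 ± 0.39 in LETO, a difference of -1.75 (exact permutation p = 0.2). It was lower in OLETF in 8 of 9 pairs of samples, and the groups met where OLETF replicate 1 (-4.08) and LETO replicate 3 (-4.09) lay. Without LETO replicate 3 the difference was -1.96 and the groups did not overlap (exact permutation p = 0.2). Groups separate more easily with fewer samples, and the share of all card A pairs that separate without this sample was not computed. Without OLETF replicate 3 the difference in the miR-23 gap was -1.17. Of all 7381 pairs of card A assays measured in every sample, 2.68% had a difference at least the size of the -1.75 from all samples. The median size was 0.530, beside 0.752 over the 10 pairs of members. miR-23a was the latest of these assays by mean Ct, and the part of its well-to-well spread in the gap was not tested. With 3 samples in each group no exact p below 0.1 is possible.

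Over all 10 pairs of members, 1 gap separated the groups, beside 13.8% of the 7381 pairs. It lay inside the b cluster, between miR-23b and miR-27b. The gap of miR-23b over miR-27b was -0.89, -0.98 and -1.44 in OLETF, against -2.24, -1.51 and -2.90 in LETO. It was higher in OLETF by 1.12 log2 units (exact permutation p = 0.1, the smallest possible), and by 0.77 without LETO replicate 3. In the a cluster, the gap of miR-23a over miR-27a was -5.86, -7.65 and -9.13 in OLETF, against -6.62, -5.72 and -8.46 in LETO, and the groups overlapped (difference -0.61, exact permutation p = 0.7).

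**Figure D4:**
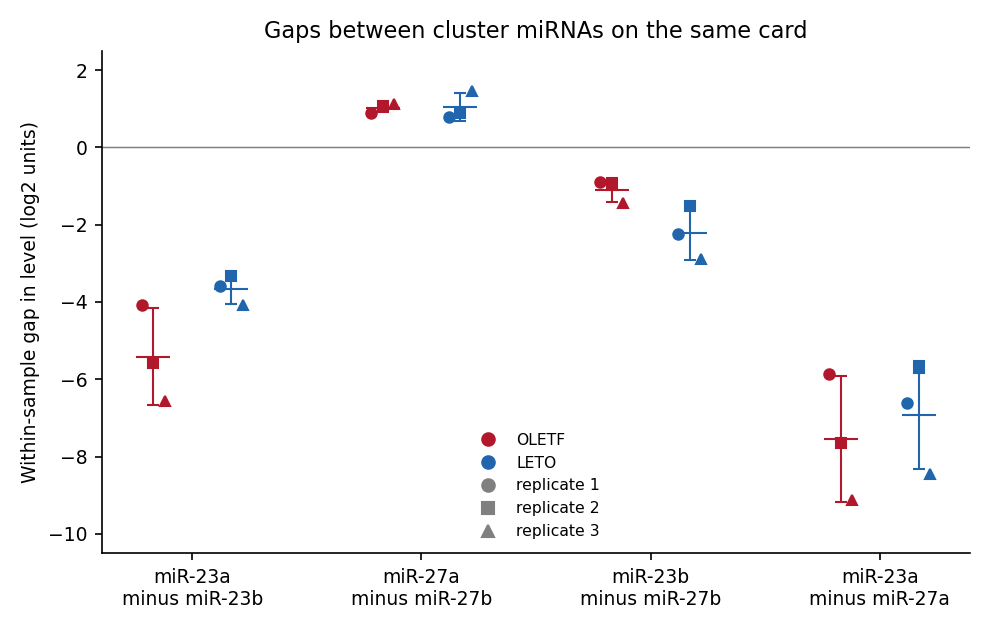
Within-sample gap in log2 units between 4 pairs of members, with OLETF in red to the left of LETO in blue, symbols for the 3 replicates and bars for the mean ± SD. The miR-27a and miR-27b gap is near 1 in every sample, the miR-23a and miR-23b gap is more negative in OLETF replicates 2 and 3 than in any LETO sample, and the miR-23b and miR-27b gap separates the groups.

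The passenger strands give a reading of single hairpins, in particular of the miR-24 hairpins that the mature strand cannot separate. Their RefSeq sequences are shown to set the assays of both hairpins side by side.
miR-24-2-5p (a cluster): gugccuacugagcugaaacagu
miR-24-1-5p (b cluster): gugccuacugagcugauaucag
The cards hold 6 such assays, all on card B: miR-23a*, miR-24-2*, miR-27a*, miR-27b*, and a mouse and a rat assay of miR-24-1*. Which of the printed bases each assay reads is not given in the files.

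miR-24-2*, from the a cluster, was measured in all samples, at a Ct of 29.83, 29.29 and 27.61 in OLETF, against 27.90, 29.17 and 25.63 in LETO. The mouse miR-24-1* assay, from the b cluster, was read later. Its mean Ct over determined wells was 35.34, 36.19 and 35.39 in OLETF, against 33.23 and 33.58 in LETO replicates 1 and 3, with no determined well in LETO replicate 2. By the Ct limit it counted as measured in no OLETF sample and in LETO replicates 1 and 3, and it was not tested. In OLETF replicates 2 and 3 a single well of the pair crossed before 35, at 34.52 and 34.32. The rat miR-24-1* assay stayed at a Ct above 35 or undetermined in all 6 samples, and miR-23a* had no determined well. In the 5 samples where both were determined, the mean Ct of the miR-24-2* wells lay 5.33 to 7.95 cycles before that of the mouse miR-24-1* wells.

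The passenger strands of the miR-27 hairpins were read late, with wells that disagreed in some samples. miR-27a* had a Ct of 33.08, 33.23 and 30.72 in OLETF, against 31.47, 31.63 and 29.23 in LETO. miR-27b* had a Ct of 34.00, 35.93 and 32.92 in OLETF, against 33.84, 36.81 and 30.79 in LETO, so that replicate 2 of each group counted as not measured. By the mean of the wells, miR-27a* crossed before miR-27b* in all 6 samples, by 0.93 to 5.18 cycles. Neither end of that range was firm. In OLETF replicate 1, with the smallest gap, the miR-27a* wells crossed at 31.87 and 34.28 and the miR-27b* wells at 34.09 and 33.92, so the order turned in the second pair. In LETO replicate 2, with the largest, the miR-27b* wells crossed at 39.30 and 34.32.

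Relative to the U6 of card B, all 3 passenger assays tested lay lower in OLETF, and 0 passed. Over all 193 assays tested with U6, 156 lay lower and 37 higher, and 0 passed. miR-24-2* lay at -12.86, -12.43 and -9.75 in OLETF, against -10.17, -13.09 and -7.67 in LETO. The groups overlapped, and OLETF minus LETO came to -1.37 (SE 1.38, limma adjusted p = 0.997). miR-27a* differed by -1.59 (SE 1.38) and miR-27b*, from 2 samples in each group, by -1.57 (SE 1.69). With the card median the values were -0.60, -0.82 and 0.086, so the direction of miR-27b* turned. With the other small RNA controls 1 of the 3 lay lower and 2 higher, beside 48 lower and 145 higher over all assays. The mature miR-27a stood 6.28 ± 0.92 log2 units over miR-27a* in OLETF and 5.52 ± 0.18 in LETO (SD, n = 3 each), each relative to the U6 of its own card. The values were 6.58, 7.01 and 5.24 in OLETF, against 5.63, 5.31 and 5.63 in LETO, so the groups overlapped. This gap rests on the U6 of both cards, and the strains were not tested for it. With the card medians miR-27a differed by -0.63, beside -0.82 for miR-27a*. With U6 they differed by -0.83 and -1.59.

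The assays with the most similar pattern were sought among the 161 other assays measured in all samples, by the root-mean-square distance between levels relative to the card median after each assay's mean was removed, over 6 samples. For miR-27a, its paralogue miR-27b was the third nearest at 0.224, behind miR-455* at 0.149 and miR-149 at 0.167. For miR-27b, miR-27a was the fifth nearest, behind among others miR-29b at 0.163, miR-152 at 0.175 and miR-322 at 0.197. The median distance to all assays was 0.611 for miR-27a and 0.586 for miR-27b.

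miR-24 and miR-23b lay at 0.335 from each other, and miR-24 and miR-27b at 0.499. Each of these pairs was nearer than the median assay for both of its members. The other cluster partners lay farther apart. For miR-24 the nearest were miR-192 at 0.109, miR-28* at 0.162 and miR-126-3p at 0.191, while miR-23b came 21st, miR-27b 62nd and miR-27a 92nd. Its median distance to all assays was 0.575. For miR-23b the nearest were miR-17 at 0.189, miR-132 at 0.190 and miR-331-3p at 0.196, while miR-24 came 18th and miR-27b 81st at 0.708, which was also the median distance. For miR-23a the nearest was miR-709 at 0.642, followed by let-7a at 0.780 and miR-133a at 0.803. Among the members, miR-27b came 43rd at 1.12, the paralogue miR-23b 51st at 1.16, miR-24 53rd and miR-27a 94th. The distances of miR-23a were large throughout, with a median of 1.23. Distances over 6 samples describe these samples and carry no test.

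Other miRNAs known from vessel growth and from hypertrophy were set beside the clusters. Of the angiogenesis list, 16 of 17 names had an assay and 13 were tested. Relative to U6, 9 lay lower and 4 higher in OLETF, 0 passed (limma), and the median was -0.15, beside -0.60 over all assays. Its assay of highest level, miR-126-3p, which endothelial cells make from the Egfl7 gene, lay at -1.48 ± 0.95 in OLETF and -1.42 ± 1.26 in LETO (SD, n = 3 each). Of the heart hypertrophy list, 19 of 21 assays were tested, 17 lay lower and 2 higher, 0 passed, and the median was -0.55. Both splits stand beside 156 lower and 37 higher over all 193 assays. Its assay of highest level, miR-133a, which restrains hypertrophy in mice, differed by -0.43 (SE 1.38). With the other small RNA controls the split turned to 1 lower and 12 higher for angiogenesis and to 5 lower and 14 higher for hypertrophy, beside 48 lower and 145 higher over all assays. With the card median, angiogenesis had 5 lower and 8 higher and hypertrophy 17 lower and 2 higher, beside 130 and 63 over all assays. With the whole-array median, angiogenesis had 5 lower and 8 higher and hypertrophy 11 lower and 8 higher, beside 120 and 73. miR-128a, whose seed overlaps that of miR-27 with an offset, differed by -1.74 (SE 1.54) from 3 OLETF and 2 LETO samples.

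None of the marker assays tested for other cell types passed (limma). The summed level of the 2 endothelial assays ran from -2.19 to -0.34 log2 units relative to U6 in OLETF, against -2.46 to 0.13 in LETO. That of the heart muscle assays ran from 0.20 to 0.99 in OLETF, against 0.046 to 1.48 in LETO. Their part in the member values was not tested.

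The authors' deposited table gave ratios of OLETF over LETO of 0.366 for miR-23a, 1.23 for miR-23b, 0.950 for miR-24, 0.561 for miR-27a and 0.567 for miR-27b. They derive from the same Ct values as the differences above.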

How the data were processed

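Per the labels' protocols, RNA from each heart went through reverse transcription with a stem-loop primer pool, then PCR on a 7900HT, and U6 snRNA served as control. The label field names SYBR Green while the design text names a Taqman card. Baseline and threshold settings are not given in the sources used here. The deposited Ct table has 384 wells per card and 2 cards per sample, some of them marked undetermined. The deposited normalized values are delta Ct, a log2 quantity with reversed sign. Subtracting the card's mean U6 Ct from each assay's Ct, with 40 for an assay without a determined well, gave values that differed by at most 3.75e-06 over 3504 values. The deposited ratio (fold) table holds OLETF over LETO per well, per the file headers.

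Determined wells of an assay were averaged. Assays with a Ct below 35 in at least 2 samples of each group were tested, 193 of 584, with limma 3.58.1 in R 4.3.3 (lmFit, eBayes, two-sided, Benjamini-Hochberg over all of them, threshold 0.05). The fitting code was run on simulated levels with independent noise of the size seen relative to the card median. The simulation held no shifts shared by the assays of a sample, so it does not test the U6 fit. For single values and gaps, exact permutation tests over samples were used, two-sided. Replicates were taken from the labels, which do not say that litters or days differed, so p-values speak for the spread between these samples. Alternatives were other references (median of the whole array or of the card, the other small RNA controls measured in all samples, quantile normalization), the deposited table, other Ct limits, a stricter filter, blocks, array weights and samples left out. miRNAs named are the members, the passenger strands of the same hairpins, the 3 assays nearest to each member in pattern, and up to 2 of highest level from each list. Members and lists were chosen with earlier results of these data known.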

Additional observations from a re-analysis of the deposited data

How the results depend on the processing

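The count of miRNAs at an adjusted p under 0.05 (limma) was 0 with U6, and 1 with the replicate block, 1 with replicate 3 of each group as a block and 32 with array weights; it ran from 0 to 3 with 1 sample left out (3 without LETO replicate 2). No member was among them. The cause was not tested. Replicate numbers were not taken as pairs. Deviations from the group means correlated at -0.088, 0.23 and 0.62 for numbers 1, 2 and 3 over 162 assays. A block of complete replicates cannot change a difference of group means where every sample is measured. The differences of the members and of the gaps were therefore unchanged by construction (-1.75 for the miR-23 gap, exact p = 0.25, the smallest that 3 pairs allow). Relative to U6, miR-23a ran from -1.96 to -1.03 with 1 sample left out, miR-23b from -0.39 to 0.92, miR-24 from -0.79 to 0.75, miR-27a from -1.96 to 0.34 and miR-27b from -1.86 to 0.15. Relative to the card median the ranges were -2.04 to -0.58, 0.18 to 0.72, 0.0076 to 0.30, -0.97 to -0.40 and -0.87 to -0.38. The difference in the miR-23 gap ran from -2.41 to -1.17 and that in the miR-27 gap from -0.14 to 0.20, while the gaps themselves ran from -4.78 to -4.13 and from 0.95 to 1.09. The sign turned for miR-23b with array weights (-0.11), for miR-27a (0.018) and miR-27b (0.034) with the other small RNA controls, and for the miR-27 gap difference within replicates 1 and 2 (0.15). For miR-24 it turned with the whole-array median (0.41), the card median (0.13, also with its replicate block, 0.13), the other small RNA controls (0.78), quantile normalization (0.33), with the card median and 1 sample left out (0.043, 0.30 and 0.041 for OLETF, 0.19, 0.19 and 0.0076 for LETO) and within replicates 1 and 2 (0.18). miR-23a lay lower in OLETF in all 27 alternatives that gave a value, and passed in none. These are not 27 separate checks. The deposited table, the looser Ct limits, the stricter filter, the blocks and the ordinary model repeat the U6 estimate of -1.45 by construction. All alternatives use the same samples. A Ct limit of 32 gave no value for miR-23a or for its gap. With 3 samples a group and single wells on card A, precision is limited by the number of samples.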
